A study of Mus musculus with 2 samples.

Results

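Hba-a1, Hba-a2, Hbb-bs and Hbb-bt are the adult alpha and beta globin genes of the mouse. They were chosen by their symbols in the deposited gene lists and are 4 of the 27998 genes counted. Their levels were followed in erythroid cells, which make them, and in every other class of cell captured with those cells, where the same RNA appears as background. The mice were wild-type C57BL/6, and defects of 2 mm in their parietal bone held CGG-Cit hydrogel or CGG hydrogel for 14 days before the cells were collected. The sources used here neither spell out the hydrogels' names nor say how many mice were pooled. Each hydrogel has 1 droplet RNA library, so no difference between them could be tested. Intervals are at the 95% level and count molecules only, without the spread between animals.

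Haemoglobin, the oxygen carrier of red blood cells, is built from paired alpha and beta chains, and each chain holds a haem group. Erythroblasts in the marrow switch the adult genes on as they mature, until globin messages outnumber all others in the cell. The message stays in young red cells after the nucleus has been expelled. In droplet sequencing, RNA set loose when cells break can be caught together with any other cell's RNA and is then counted under that cell's barcode.

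The alpha genes lie on chromosome 11 and the beta genes on chromosome 7 of the mm10 build (GRCm38). In the GENCODE M21 annotation Hba-a1 (ENSMUSG00000069919) spans chr11:32283511-32284465 and Hba-a2 (ENSMUSG00000069917) spans chr11:32296489-32297298, both on the plus strand. Hbb-bs (ENSMUSG00000052305) spans chr7:103826534-103828096 and Hbb-bt (ENSMUSG00000073940) spans chr7:103812524-103813996, both on the minus strand. The main transcript of each gene has 3 exons, and no other annotated gene overlaps any of the 4.

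The alpha paralogs are hard to tell apart by sequence, and the beta paralogs less so near their 3′ ends. The Hba-a1 and Hba-a2 transcripts could be aligned over 538 bases, of which 537 were identical, and the single difference is C577T, counted from the 5′ end of the 699-base Hba-a1 transcript with the Hba-a1 base first. It falls in the coding part of exon 3 in both genes, 122 bases before the end of the Hba-a1 transcript and 138 bases before the end of the Hba-a2 transcript. The 29 bases around it are shown because the split between the alpha genes rests on this base and on the transcript ends, and the capital marks the base that differs (chr11:32284329-32284357 for Hba-a1 and chr11:32297146-32297174 for Hba-a2, plus strand).
Hba-a1: catgcctctctggaCaaattccttgcctc
Hba-a2: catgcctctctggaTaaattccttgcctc
At their ends the annotated transcripts differ by 161 extra bases at the 5′ end of Hba-a1 and 16 at the 3′ end of Hba-a2. Of all 91-base windows of the Hba-a1 transcript, 58.6% occur unchanged in Hba-a2, and 76.9% of those of Hba-a2 occur in Hba-a1. No source used here says how reads that match both genes were counted, so the split between Hba-a1 and Hba-a2 is uncertain throughout. The beta transcripts had 93.3% identity over 623 aligned bases, and 63.2% of the windows of Hbb-bs occur in Hbb-bt. Of the windows in the last 300 bases, 24.3% of those of Hbb-bs and 23.8% of those of Hbb-bt occur in the paralog. For the alpha genes it was 56.7% for Hba-a1 and 49.0% for Hba-a2.

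The promoters are shown because the 4 genes were high together in the erythroid cells. These are the 120 bases just upstream of each RefSeq start (GRCm38.p6), at chr11:32296372-32296491 on the plus strand for Hba-a2, chr7:103827929-103828048 on the minus strand for Hbb-bs and chr7:103813924-103814043 on the minus strand for Hbb-bt. Capitals mark 3 of the 4 motifs searched, each on both strands. The first, CACCC, is the core that the erythroid factor KLF1 is known to read. The second, CCAAT, is a common promoter element. The last has the letters ATATAA and resembles the box that places the start of transcription. In Hbb-bt a CCAAT and a match on the other strand lie side by side.
Hba-a2: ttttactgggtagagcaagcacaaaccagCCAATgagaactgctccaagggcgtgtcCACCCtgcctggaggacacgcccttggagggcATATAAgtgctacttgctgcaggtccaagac
Hbb-bs: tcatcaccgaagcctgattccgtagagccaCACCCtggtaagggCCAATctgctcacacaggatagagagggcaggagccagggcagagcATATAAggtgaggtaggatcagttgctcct
Hbb-bt: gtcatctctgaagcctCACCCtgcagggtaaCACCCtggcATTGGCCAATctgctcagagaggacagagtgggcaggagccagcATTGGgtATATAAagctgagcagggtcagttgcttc
The RefSeq windows of Hba-a1 and Hba-a2 share an unbroken run of 297 of 300 bases, so Hba-a1 is not printed. Those of Hbb-bs and Hbb-bt share no run longer than 14 bases. All 4 genes hold the 3 marked motifs in these 120 bases. The unmarked motif, GATAA, was in none of the 4 there, against 10.5% of all RefSeq windows of that length. Within 250 bases upstream all 4 genes held it, as did 22.6% of all windows. Among 32851 RefSeq promoter windows of that length, 31.7% held the first motif, 21.3% the second, 4.47% the last, and 0.286% all 3 together. GENCODE starts all 4 gene models upstream of the RefSeq start, with the smallest gap at Hba-a2. A match is a description of the letters and not evidence of binding.

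After filtering, the CGG-Cit library held 9994 cells and 95785575 UMIs (unique molecular identifiers, each standing for 1 captured RNA molecule), and the CGG library held 11048 cells and 82107891 UMIs. The 4 globin genes took 11.5% of all UMIs in the CGG-Cit library and 7.01% in the CGG library. Cells were classed one by one from marker genes, with at least 3 markers of a list required and no globin gene among them. The erythroid class, marked by genes such as Slc4a1, Alas2 and Klf1, held 997 CGG-Cit cells (9.98%) and 548 CGG cells (4.96%). Its cells of 500 or more globin UMIs detected a median of 10 of the 14 measured erythroid markers in CGG-Cit and 11 in CGG. The class carried 87.6% of the globin UMIs of the CGG-Cit library and 78.6% of those of the CGG library. The libraries shared 34 cell barcodes. CPM below means UMIs per 1000000 UMIs of a class in a library. UMIs from 3′ ends give no level per length, so shares between genes are shares of captured molecules.

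Erythroid cells of both libraries were filled with globin message to nearly the same degree. The 4 genes together reached 718961 CPM in CGG-Cit erythroid cells and 716064 CPM in CGG erythroid cells, which is 71.9% of all their UMIs in CGG-Cit and 71.6% in CGG. The CGG-Cit over CGG ratio was 1.004 (1.003 to 1.005). Per cell, the median was 10008 globin UMIs in CGG-Cit (quartiles 6363 and 13284) and 8356.5 in CGG (quartiles 5443 and 11237), and the cells of the libraries overlapped over most of their range. The CGG-Cit erythroid cells were also the deeper ones, with a median of 13344 UMIs against 11388.5 in CGG.

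Hbb-bs, one of the adult beta globin genes of this strain, was the most abundant. Its level was 335184 CPM in CGG-Cit erythroid cells and 328643 CPM in CGG erythroid cells, a ratio of 1.02. Hba-a1 followed with 157781 CPM in CGG-Cit and 162294 CPM in CGG, a ratio of 0.972. Hba-a2, its near-copy, had 133689 CPM in CGG-Cit and 134150 CPM in CGG, a ratio of 0.997. Hbb-bt, the other adult beta gene, had 92308 CPM in CGG-Cit and 90976 CPM in CGG, a ratio of 1.015. The order of the 4 genes was the same in both libraries, and the gap between neighbours in that order was wider than any difference between hydrogels. No member passed a ratio of 1.5 in either direction. Among the 3264 genes with enough UMIs in erythroid cells (at least 10 CPM and 20 UMIs), 2.05% were above 1.5 and 4.35% were below 1/1.5, and the median ratio over them was 0.985. Whether the erythroid ratio of the summed level lies above or below 1 depended on the settings. It was 0.976 with at least 500 detected genes per cell and 0.848 when cells were classed by clusters.

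Across single erythroid cells the alpha share varied less, in percentage points, than the splits within the alpha and the beta genes. Among the cells with at least 500 globin UMIs (953 CGG-Cit and 533 CGG cells), alpha genes made up a median of 40.4% of globin UMIs in CGG-Cit cells and 41.6% in CGG cells. The central 90% of cells ran between 34.5% and 45.7% in CGG-Cit and between 35.3% and 46.6% in CGG. Hbb-bt made up a median of 22.0% of beta globin UMIs in both libraries. Its central 90% ran from 15.6% to 30.3% in CGG-Cit and from 15.7% to 30.3% in CGG. Hba-a1 made up a median of 53.9% of alpha globin UMIs in CGG-Cit cells and 54.8% in CGG cells. Its central 90% ran from 49.0% to 66.5% in CGG-Cit and from 48.8% to 67.0% in CGG. Only 10.7% of these CGG-Cit cells and 8.82% of these CGG cells had more Hba-a2 than Hba-a1.

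The mixture differed between erythroid stages called from gene lists. Erythroid cells were staged with short gene lists that hold no globin: cells with at least 3 UMIs of the early list (Kit, Myb, Myc, Cdk6, Gata2 and Car1) were called early, cells with none of those but at least 1 UMI of the late list (among them Bpgm, Fam46c, Bnip3l, Mkrn1, Ypel4 and Isg20) were called late, and the rest stood between. Early cells numbered 123 in CGG-Cit and 53 in CGG, and late cells 734 in CGG-Cit and 431 in CGG. Globin took 24.7% of UMIs in early CGG-Cit cells, 72.2% in those between and 85.3% in late ones. In CGG cells it took 24.1%, 65.4% and 82.7% from early to late. The share left to all other genes together was correspondingly lower in late cells. The stages rest on raw UMI counts, so a cell with few non-globin UMIs is less likely to be called early. The part of this rule in the climb of the globin share was not tested. In CGG-Cit the median totals were 18588 UMIs in early and 13093 in late cells, with median globin counts of 4662 and 11208. Over CGG-Cit erythroid cells Car1 gave 2568 UMIs of the early list, and Cdk6, the next, gave 96.

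Of the alpha genes, Hba-a1 led early and Hba-a2 gained later. In CGG-Cit cells Hba-a1 made up 24.8%, 22.0% and 21.7% of globin UMIs from early to late, and in CGG cells 27.0%, 23.2% and 22.3%. Hba-a2 made up 14.8%, 18.0% and 19.0% in CGG-Cit cells and 14.8%, 18.1% and 19.1% in CGG cells. Hbb-bt went the other way, with 16.5%, 13.5% and 12.4% in CGG-Cit cells and 16.7%, 14.0% and 12.3% in CGG cells. Hbb-bs made up 43.9%, 46.5% and 46.9% in CGG-Cit cells and 41.5%, 44.7% and 46.3% in CGG cells. The total share of the alpha genes stayed between 39.6% and 41.8% in all stages of both libraries. The early to late shift of each gene had the same direction in both libraries, and for Hba-a2 and Hbb-bt it was several times wider than the gap between libraries at any stage. These intervals, each under 0.4 percentage points wide, count molecules and say nothing of the spread between animals.

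**Figure D1:**
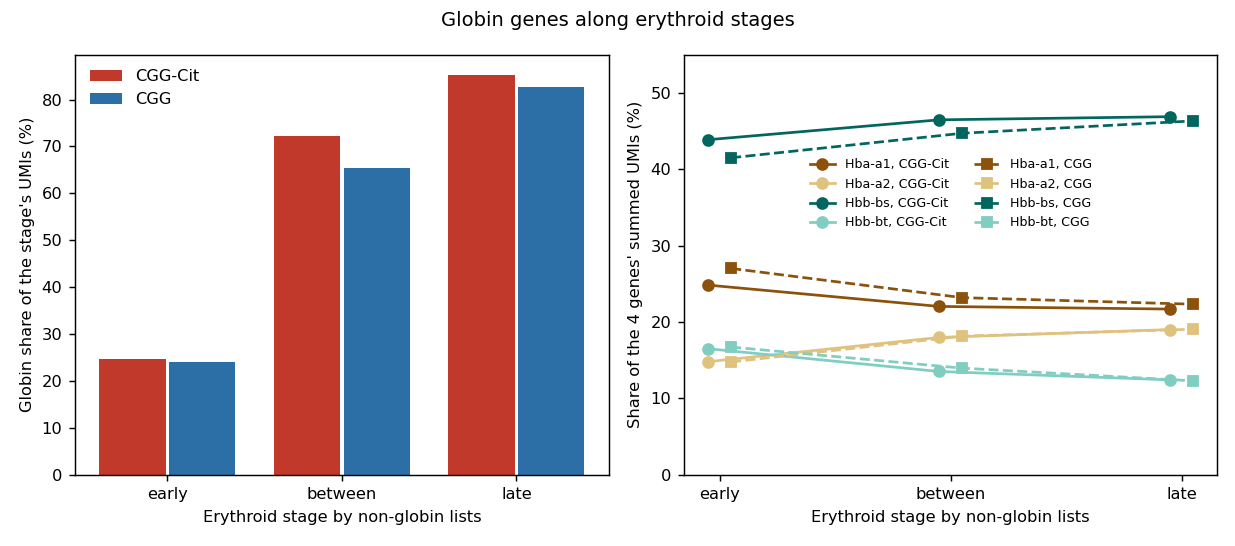
Erythroid cells by stage, CGG-Cit left of or before CGG. The left panel gives the share of a stage's UMIs (%) that came from the 4 globin genes, with bars from 0, and the right panel gives each gene's share of the summed globin UMIs (%), solid for CGG-Cit and dashed for CGG. The globin share is 24.7% in early CGG-Cit cells and 24.1% in early CGG cells, and climbs to 85.3% in late CGG-Cit cells and 82.7% in late CGG cells, while Hba-a2 and Hbb-bs gain and Hba-a1 and Hbb-bt lose share.

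Of the 8 enzymes of haem synthesis none passed 1.5 in either direction between the hydrogels in erythroid cells, with a median ratio of 1.014. Alas2, the erythroid form of the first enzyme, had 834 CPM in CGG-Cit and 895 CPM in CGG. Fech, which inserts the iron, had 337 CPM in CGG-Cit and 367 CPM in CGG. Of 15 measured regulators and partners of the globin genes, 2 were above 1.5 and none below 1/1.5, with a median ratio of 1.07. They were Myb, a factor of immature blood cells, with 79 UMIs in CGG-Cit and 13 in CGG (ratio 2.85, 1.58 to 5.59), and Bcl11a, known for silencing embryonic globin genes, with 187 UMIs in CGG-Cit and 58 in CGG (ratio 1.51, 1.12 to 2.07). Among the 3264 genes with enough UMIs in erythroid cells, 2.05% were above 1.5 and 4.35% below 1/1.5. No share above 1.5 was taken over all genes with as few UMIs as Myb, so whether this list stands out was not tested. Klf1 had 154 CPM in CGG-Cit and 139 CPM in CGG, and Gata1, the master factor of the lineage, had 51.3 CPM in CGG-Cit and 39.6 CPM in CGG.

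Of the 4 early genes with enough UMIs, 3 were above 1.5 and none below 1/1.5, with a median ratio of 1.68. They were Car1, Cdk6 and Myb, and Myb is also one of the regulators above 1.5. The lists were not compared with each other or with all genes by a test. Among the 3264 genes of at least 10 CPM counted earlier, 2.05% were above 1.5 and 4.35% below 1/1.5. Myb, with 5.87 CPM in CGG-Cit and 2.06 CPM in CGG, lay below 10 CPM. So did Cdk6, with 7.13 CPM in CGG-Cit and 4.12 CPM in CGG. No share was taken over all genes at such low levels, so whether the early list stands out from them was not tested. Car1, a carbonic anhydrase of early erythroid cells, had 191 CPM in CGG-Cit and 117 CPM in CGG (ratio 1.62, 1.496 to 1.76), and Kit, the receptor of stem cell factor, had 11 UMIs in CGG-Cit and 0 in CGG. Beside this, early cells made up 123 of 997 erythroid cells in CGG-Cit and 53 of 548 in CGG. Of the 7 late genes none passed 1.5 in either direction. Of 14 measured erythroid markers, Kel, a blood group protein, was below 1/1.5 (ratio 0.603, 0.559 to 0.65), and Slc4a1, the anion exchanger of the red cell membrane, had 930 CPM in CGG-Cit and 1312 CPM in CGG (ratio 0.709). The embryonic globins were near 0: Hbb-y had 8 UMIs in CGG-Cit and 3 in CGG, Hba-x had 2 in CGG-Cit and 0 in CGG, Hbb-bh1 had 1 in CGG-Cit and 0 in CGG, and Hbb-bh2 had none in either. Of the theta globins, Hbq1b had 721 UMIs in CGG-Cit erythroid cells and 365 in CGG, and Hbq1a had 218 in CGG-Cit and 92 in CGG. Myoglobin (Mb) and neuroglobin (Ngb) had no UMI in erythroid cells of either library, and cytoglobin (Cygb), a globin of fibroblasts, had 0 in CGG-Cit and 20 in CGG.

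Globin UMIs were also present in nearly every other cell. Over all classes, 1 CGG-Cit cell and 3 CGG cells had none. The level there was a low floor, and its source was not tested. A B lineage cell had a median of 18 globin UMIs in CGG-Cit (quartiles 14 and 23) and 13 in CGG (9 and 17). A neutrophil had 21 in CGG-Cit (16 and 28) and 14 in CGG (10 and 19). A T or NK cell had 19 in CGG-Cit (16 and 24) and 13 in CGG (11 and 17). A monocyte or macrophage had 25 in CGG-Cit (20 and 33) and 18 in CGG (13 and 26), and a dendritic cell had 24 in CGG-Cit (17 and 29) and 15 in CGG (12 and 19.5). The erythroid medians of 10008 in CGG-Cit and 8356.5 in CGG lay far above these values. Mesenchymal cells had a higher median of 45 in CGG-Cit and 33 in CGG, and myeloid progenitors one of 47 in CGG-Cit and 37 in CGG.

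The median floor per cell stood higher in the CGG-Cit library, while means and summed levels had no common direction. Counting only cells under 500 globin UMIs, the median per cell was higher in CGG-Cit in all 7 non-erythroid classes with at least 50 cells in each library, by ratios between 1.3 and 1.6. The mean per cell was lower in CGG-Cit in mesenchymal cells (ratio 0.766) and myeloid progenitors (0.715) and higher in the other 5 classes, with ratios from 1.118 to 1.46. The ratio of summed CPM was 1.25 in T and NK cells, 1.375 in neutrophils and 1.53 in dendritic cells, 0.990 in B lineage cells, and 0.899 in monocytes and macrophages, 0.361 in myeloid progenitors and 0.341 in mesenchymal cells. Beside this, the globin share of all UMIs was 11.5% in the CGG-Cit library and 7.01% in the CGG library. Cells of most classes were deeper in CGG-Cit (B lineage, median 3238 UMIs in CGG-Cit and 2831 in CGG). In mesenchymal cells the median was 16642 UMIs in CGG-Cit and 2655.5 in CGG, and in myeloid progenitors 32200 in CGG-Cit and 5132.5 in CGG. The part of the globin share or of depth in these medians, means and summed levels was not tested. With each cell thinned to 1000 UMIs, 96.9% of B lineage cells in CGG-Cit (96.3 to 97.4%) and 93.3% in CGG (91.5 to 94.8%) still had a globin UMI, with 81 shallower CGG-Cit and 8 shallower CGG cells left out. Of neutrophils it was 93.3% in CGG-Cit (92.3 to 94.3%) and 89.5% in CGG (87.5 to 91.3%), with 74 CGG-Cit and 15 CGG cells left out. Unthinned, the shares were between 99.8% and 100% in both classes.

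**Figure D2:**
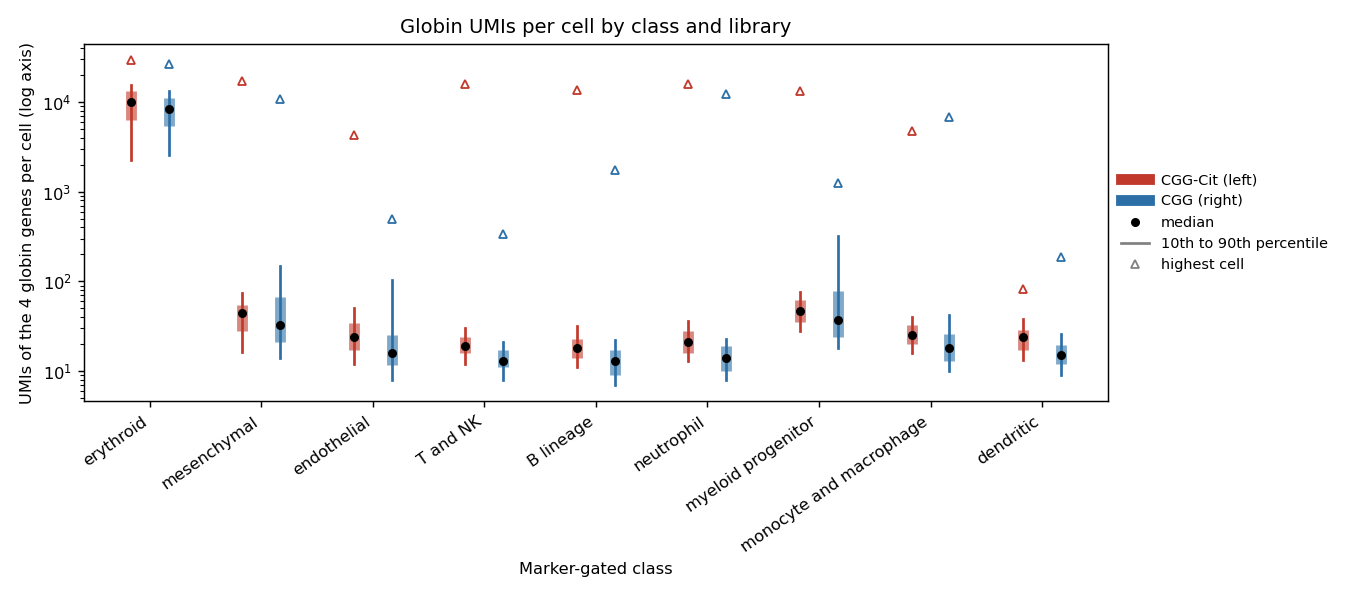
Summed UMIs of the 4 globin genes per cell (log axis) by class, CGG-Cit left and CGG right of each pair. Dots are medians, thick bars quartiles, thin lines the 10th to 90th percentile and triangles the highest cell. Erythroid medians stand at 10008 in CGG-Cit and 8356.5 in CGG, medians of all other classes lie between 13 and 47, and single CGG-Cit B lineage cells and neutrophils reach 13487 and 16048 globin UMIs.

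Summed over a class, a few cells held most of the background in some classes and little or none in others. In B lineage cells the 4 genes reached 12840 CPM in CGG-Cit and 5149 CPM in CGG, a ratio of 2.49 (2.46 to 2.53). All 4 genes were above 1.5 there, with ratios of 2.46 for Hba-a1, 2.22 for Hba-a2, 2.62 for Hbb-bs and 2.48 for Hbb-bt. Of 7567 genes with enough UMIs in B lineage cells, 3.26% were above 1.5 and 9.78% below 1/1.5. But 27 of the 3903 CGG-Cit B lineage cells had 500 or more globin UMIs, and they held 72.7% of the class's globin. In CGG it was 8 of 934 cells with 30.5% of the globin. Without those cells the level was 3579 CPM in CGG-Cit and 3614 CPM in CGG, a ratio of 0.990 (0.973 to 1.008).

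In neutrophils a few cells held most of the globin in both libraries. Their sum was 10290 CPM in CGG-Cit and 6604 CPM in CGG, a ratio of 1.56 (1.54 to 1.57). In CGG-Cit 18 of 2615 neutrophils held 72.5% of the globin, and in CGG 4 of 1075 held 68.7%. Without them the level was 2884 CPM in CGG-Cit and 2097 CPM in CGG, a ratio of 1.375. In T and NK cells 5 of 512 CGG-Cit cells and no CGG cell had 500 or more globin UMIs, and the sum was 17689 CPM in CGG-Cit and 3051 CPM in CGG. Without the 5 cells it was 3804 CPM in CGG-Cit and 3051 CPM in CGG. In both classes the ratio stayed above 1 without the high cells. In monocytes and macrophages the high cells held 23.5% of the globin in CGG-Cit and 41.7% in CGG, and in CGG mesenchymal cells they held 42.9%. No CGG endothelial cell reached 500 globin UMIs, but 2 of 47 CGG-Cit endothelial cells did and held 86.8% of the globin. In CGG-Cit mesenchymal cells 1 of 57 held 87.6%. In myeloid progenitors 10 of 529 CGG-Cit cells held 74.1%, and 13 of 236 CGG cells held 37.7%.

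The high cells of CGG-Cit B lineage stood apart from the rest, and those of CGG did not. Between the floor and the high range, 7 CGG-Cit and 8 CGG B lineage cells had at least 100 but under 500 globin UMIs. The 27 high CGG-Cit B lineage cells had a median of 8765 globin UMIs, close to the erythroid median of 10008, and detected a median of 4 of the 14 erythroid markers, against 0 in the other B lineage cells. The 8 high CGG B lineage cells lay nearer the bound, with a median of 641 globin UMIs, a highest value of 1732 and a median of 1 erythroid marker. High neutrophils had a median of 9073 globin UMIs and 2 erythroid markers in CGG-Cit (18 cells), and 9349 globin UMIs and 2.5 markers in CGG (4 cells). Predicted doublets had been removed beforehand (5.10% of cells in CGG-Cit, and in CGG a fixed share of 10.0%, since the caller marked only 1 cell there). The part of droplets holding more than 1 cell in these barcodes was not tested.

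The erythroid class stood above the B lineage background by a factor that depended on the high cells, the denominator and the markers required. The ratio of erythroid to B lineage CPM was 56.0 in CGG-Cit and 139 in CGG over all cells. Without the cells of 500 or more globin UMIs it was 200.9 in CGG-Cit and 198 in CGG. With all cells but globin left out of the denominator it was 197 in CGG-Cit and 487 in CGG, and with at least 5 markers required 49.8 in CGG-Cit and 80.8 in CGG. Without the high cells the B lineage floor was 0.498% of the erythroid level in CGG-Cit and 0.505% in CGG.

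In B lineage cells and neutrophils the floor grew with depth, but by less than in proportion. The cells of a class were ranked by their non-globin UMIs and cut into 4 depth bins of equal size. The bins of CGG-Cit B lineage cells had median totals of 1972, 2803, 3834 and 9611 UMIs, and median globin counts of 14, 16, 18 and 26. The bins of CGG B lineage cells had median totals of 1777.5, 2504, 3316 and 6991 UMIs and globin counts of 10, 11, 13 and 17. From the shallowest to the deepest bin the globin level therefore dropped to 2144 CPM from 8247 CPM in CGG-Cit, and to 1995 CPM from 9544 CPM in CGG. The median globin count was higher in CGG-Cit in each bin, while the CPM of the shallowest bin was lower in CGG-Cit. Neutrophil counts also climbed with depth, with medians of 16, 19, 22 and 31 in CGG-Cit bins and 10.5, 14, 14 and 19 in CGG bins. The CPM of their shallowest bin was higher in CGG-Cit, with 7631 CPM against 5302 CPM in CGG. Median counts did not climb in CGG mesenchymal cells (32, 47, 35 and 27 from shallowest to deepest) or CGG myeloid progenitors (49, 81, 22 and 30). In CGG endothelial cells they were 15, 17, 14 and 19. Within a class the background CPM of globin thus moved with depth.

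**Figure D3:**
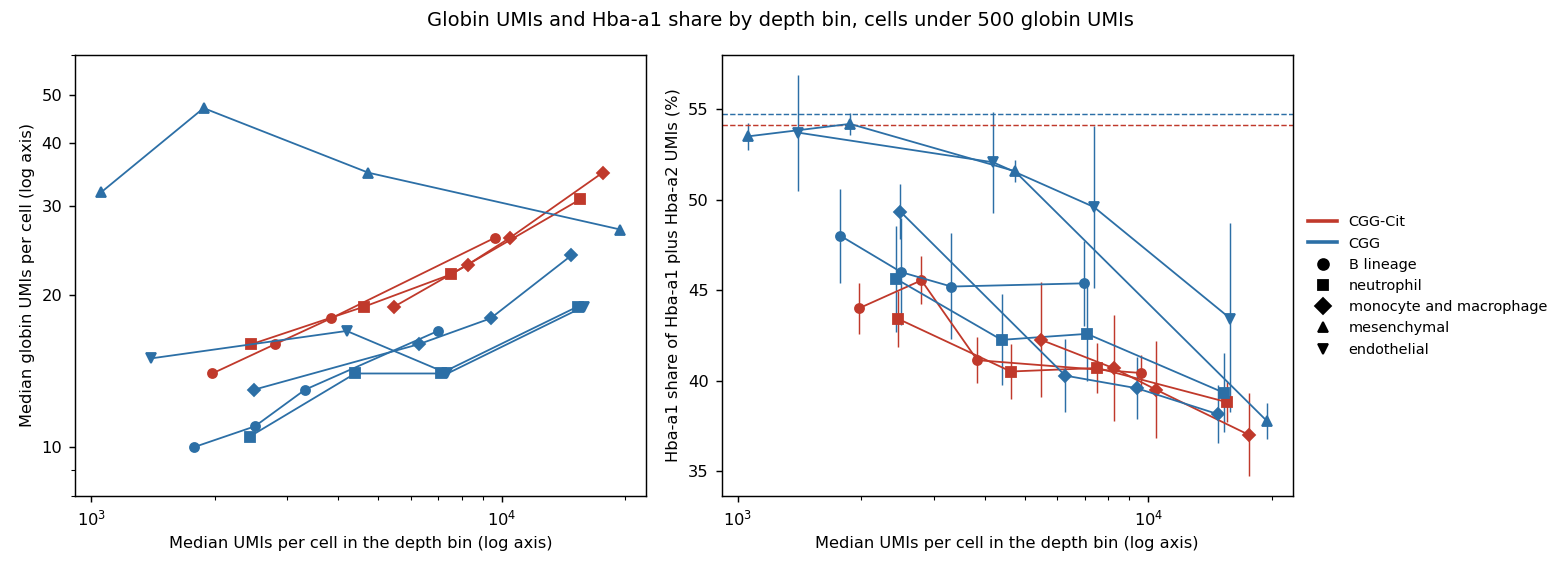
Cells under 500 globin UMIs of 5 classes, in 4 depth bins by non-globin UMIs, plotted at the bin's median UMIs (log axis). The left panel gives the median globin UMIs per cell (log axis), the right panel the Hba-a1 share of alpha globin UMIs (%) with 95% counting intervals, and dashed lines give the erythroid share of each library. CGG-Cit mesenchymal and endothelial cells were too few to split. B lineage, neutrophil and monocyte counts climb with depth and stand higher in CGG-Cit, CGG mesenchymal cells go from 32 and 47 in the shallow bins to 27 in the deepest, and the Hba-a1 share is lower in the deepest than in the shallowest bin, with overlapping intervals in CGG B lineage cells and CGG-Cit monocytes.

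The background did not have the mixture of the erythroid class as a whole. In erythroid cells Hba-a1 made up 21.9% of globin UMIs in CGG-Cit and 22.7% in CGG, Hba-a2 made up 18.6% in CGG-Cit and 18.7% in CGG, Hbb-bs 46.6% in CGG-Cit and 45.9% in CGG, and Hbb-bt 12.8% in CGG-Cit and 12.7% in CGG. In the floor of CGG-Cit B lineage cells Hba-a1 made up 14.1%, Hba-a2 19.2%, Hbb-bs 53.8% and Hbb-bt 12.9%. In the floor of CGG B lineage cells these shares were 16.7%, 19.5%, 50.6% and 13.3%. Hba-a1 was thus the gene that was short in the floor, and Hbb-bs the one in excess, while the shares of Hba-a2 and Hbb-bt lay close to the erythroid ones. The interval of the Hba-a1 share of alpha UMIs was 41.8 to 43.0% in the CGG-Cit B lineage floor and 44.8 to 47.5% in the CGG one, against 54.1 to 54.2% in CGG-Cit erythroid cells and 54.7 to 54.8% in CGG ones. The few erythroid cells under 500 globin UMIs differed from their class. Their share was 46.5% (45.1 to 47.9%) in CGG-Cit (44 cells) and 53.2% (50.9 to 55.6%) in CGG (15 cells). Hbb-bs made up 38.7% of their globin UMIs in CGG-Cit and 41.1% in CGG, below the whole class and the floor.

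This held across classes in CGG-Cit. The floor of all 9 non-erythroid classes with at least 1000 such globin UMIs had an Hba-a1 share of alpha UMIs between 36.8% and 42.6%, below the erythroid 54.1% and below 50% in each. Hbb-bs lay between 53.3% and 56.5% of globin UMIs in those classes. In CGG the same share ran from 41.3% to 53.1% over 10 such classes and was below 50% in 6 of them. B lineage cells and neutrophils of 500 or more globin UMIs had an Hba-a1 share of alpha UMIs near the erythroid one. It was 54.8% in CGG-Cit B lineage cells, 54.9% in CGG-Cit neutrophils, 54.3% in CGG B lineage cells and 54.8% in CGG neutrophils. It was 56.9% (56.5 to 57.3%) in the 78 high CGG mesenchymal cells and 50.7% (49.5 to 51.9%) in the 1 high CGG-Cit mesenchymal cell. The other shares of high cells were not all erythroid. Hbb-bs made up 50.5% of globin UMIs in high CGG-Cit B lineage cells, between the erythroid 46.6% and the floor's 53.8%, and Hbb-bt made up 8.91% in high CGG B lineage cells, against 12.7% in CGG erythroid cells. As the alpha genes differ by 1 base apart from their ends, the share of reads over that base can also move with how fragments were counted, which was not tested.

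**Figure D4:**
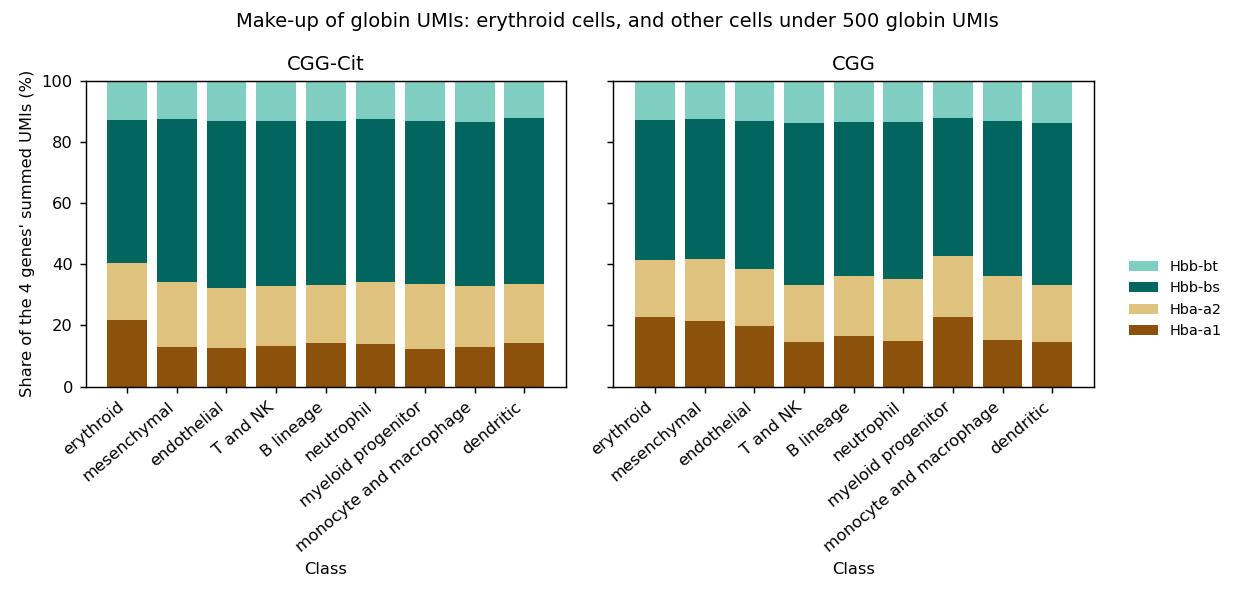
Share (%) of each globin gene in the summed globin UMIs, CGG-Cit in the left panel and CGG in the right. The first bar of a panel is the erythroid class with cells of all globin counts, and the others are cells under 500 globin UMIs of each class. Hba-a1 is 21.9% of globin UMIs in CGG-Cit erythroid cells and between 12.3% and 14.2% in the other CGG-Cit classes drawn, and in CGG the mesenchymal, endothelial and myeloid progenitor bars look like the erythroid bar.

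The Hba-a1 share of alpha UMIs was lower in the deepest than in the shallowest bin in all 12 pairs of a class and a library that could be split, but the intervals of these bins overlapped in 5 of them. In CGG-Cit neutrophils the Hba-a1 share of alpha UMIs was 43.4%, 40.5%, 40.7% and 38.8% from the shallowest to the deepest bin, and in CGG neutrophils 45.6%, 42.3%, 42.6% and 39.3%. In CGG-Cit monocytes and macrophages it was 42.3%, 40.7%, 39.5% and 37.0%, and in CGG ones 49.3%, 40.3%, 39.6% and 38.2%. In CGG-Cit B lineage cells it was 44.0%, 45.6%, 41.1% and 40.4%. Intervals overlapped in CGG B lineage cells (48.0%, 46.0%, 45.2% and 45.4%), in T and NK cells of both libraries, and in CGG-Cit monocytes and macrophages and CGG-Cit myeloid progenitors. A mean CGG-Cit neutrophil of the deepest bin held 4.49 Hba-a1 and 7.08 Hba-a2 UMIs, and one of the shallowest 2.66 and 3.47. Deep CGG-Cit neutrophils thus carried more of both alpha genes, with a larger gain for Hba-a2.

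Shallow stromal cells of the CGG library stood above the low floor. Mesenchymal cells were marked by collagens and Pdgfra. Those under 500 globin UMIs had a level of 2447 CPM in CGG-Cit (56 cells), against 7174 CPM in CGG (3408 cells). The libraries differed in depth there, with a median over all mesenchymal cells of 16642 UMIs in CGG-Cit and 2655.5 in CGG. Of the CGG mesenchymal cells, 485 had at least 100 but under 500 globin UMIs, against 8 CGG B lineage cells and 2 CGG neutrophils. The level was tied to shallow cells. In CGG mesenchymal bins with median totals of 1057, 1878.5, 4732 and 19451 UMIs, the level was 45595, 38193, 12570 and 1332 CPM. The level of the deepest CGG bin thus lay below the 2447 CPM of CGG-Cit mesenchymal cells. The Hba-a1 share of alpha UMIs in these bins was 53.5%, 54.2%, 51.6% and 37.8%. By this share alone the shallow cells lay near the erythroid cells and the deep cells near the floor. The shares of the other genes in these bins were not set against the erythroid ones. The median mitochondrial share of UMIs in the same bins was 2.92%, 2.66%, 1.93% and 1.38%.

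CGG endothelial cells followed the mesenchymal pattern, with 30476 CPM at a median of 1401 UMIs and 1228 CPM at a median of 15849 UMIs. Among clusters, 4 of those found in CGG were at 27680 CPM or more. One was led by Col1a1 and Pam with 30612 CPM, one by Gm26870 and Col1a1 with 36407 CPM, one by the vessel genes Apold1 and Rgs5 with 27680 CPM, and one by Cdh13 and Cav1 with 30601 CPM. A deep CGG mesenchymal cluster led by C1qtnf3 and Wisp2 had 1718 CPM. The CGG-Cit library held too few cells in these clusters for a value. Cells with markers of several classes had 2007 CPM under 500 globin UMIs in CGG-Cit (225 cells in all, median 20442 UMIs), against 17835 CPM in CGG (1744 cells in all, median 2178.5 UMIs). The myeloid progenitor class of CGG is mixed in the same way, since its shallower cells (median 941.5 UMIs) had 57511 CPM and its deepest ones (median 36235 UMIs) had 845 CPM.

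The B lineage floor of other red cell genes, as a share of their erythroid level, ran from near that of the globin genes to many times above it. In CGG-Cit B lineage cells under 500 globin UMIs, Alas2 was at 0.503% of its erythroid level and Slc4a1 at 0.61%. The globin genes themselves were at 0.32% for Hba-a1, 0.514% for Hba-a2, 0.574% for Hbb-bs and 0.501% for Hbb-bt. In CGG B lineage cells Alas2 was at 0.664%, Slc4a1 at 0.797%, Hba-a1 at 0.372% and Hbb-bs at 0.556%. The values of Alas2 and Slc4a1 rest on 25 to 123 UMIs of a gene in a library. Hemgn, a nuclear protein of blood cells, was at 0.573% in CGG-Cit and 0.749% in CGG. Fech was at 2.60% in CGG-Cit and 3.68% in CGG, Bpgm, an enzyme of red cell metabolism, at 2.57% in CGG-Cit and 2.40% in CGG, and Mkrn1 at 8.85% in CGG-Cit and 9.12% in CGG. Bnip3l, which removes mitochondria in maturing red cells and is used by many other cells, was at 32.7% in CGG-Cit and 36.2% in CGG.

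Over the 19 class and library profiles with at least 50 cells, the genes whose levels followed the summed globin most closely among 12513 genes included Alas2 (Pearson r of log2(CPM + 1) 0.985), Slfn14 (0.966), Hbq1a (0.961) and Trim10 (0.959). Chac2, Sowaha, Rhd and Rec114 were also among the 10 closest. The profiles share 2 libraries and the erythroid pair is far above the rest, so these values describe and test nothing. Over the 17 profiles without erythroid cells Alas2 (0.897) was again among the closest, with Chac2 (0.794), Slfn14 (0.766) and Trim10 (0.750) after it.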

How the data were processed

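Raw UMI counts of the 10x droplet libraries were used as deposited. The authors' counting used mm10 and cellranger 4.0.0 per the file headers, or Cell Ranger 3.0 per the submitters' processing notes. The members and gene lists were chosen with earlier results of these data known. The named genes were the 4 members, the fixed lists and the 10 genes most like the summed globin level by Pearson correlation; some of these genes are not reported here.

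Python 3.11.15 with scanpy 1.11.5 was used. Barcodes with at least 200 genes and at most 20% mitochondrial UMIs were kept (10531 of 10806 in CGG-Cit, 12279 of 12527 in CGG). Scrublet removed 537 CGG-Cit cells, and since it marked 1 CGG cell, the 1231 highest scores (0.8% per 1000 barcodes) were removed there. A cell joined a class when it detected at least 3 markers and their share of its UMIs reached 0.1 of that in reference cells, which detect at least 70% of the list. For erythroid cells the share was taken over non-globin UMIs. A second class above 0.5 of the best gave "several classes". These gate limits and the bound of 500 globin UMIs were chosen after seeing the data. Ahsp, Trac, Trbc2, Trdc and Ighm were not analysed here. Clusters (Leiden, 2000 variable genes, 30 components, no globin gene) were an alternative.

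UMIs were summed by class and library. CPM have exact Poisson, ratios exact conditional binomial and shares Clopper-Pearson intervals. The ratio intervals were tried on simulated Poisson counts without spread between cells. That trial cannot tell how they hold where cells differ. Depth was 82107891 to 95785575 UMIs. With 1 library per hydrogel and cells not being replicates, no p-value was computed.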

Additional observations from a re-analysis of the deposited data

Results flagged for a closer look

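The globin level of cells under 500 globin UMIs had no common direction over 7 non-erythroid classes, and in 3 of them it was lower in CGG-Cit beyond the counting interval. The CGG-Cit over CGG ratio of summed CPM was 0.341 in mesenchymal cells, 0.361 in myeloid progenitors and 0.899 in monocytes and macrophages, against 1.25 in T and NK cells, 1.375 in neutrophils and 1.53 in dendritic cells, and 0.990 (0.973 to 1.008) in B lineage cells. These differences between classes were not tested. Depth differed too, with a median of 16642 UMIs in CGG-Cit and 2655.5 in CGG in mesenchymal cells. In myeloid progenitors it was 32200 in CGG-Cit and 5132.5 in CGG. In their deepest bins the level of myeloid progenitors was 1408 CPM in CGG-Cit and 845 CPM in CGG, and that of monocytes and macrophages 1989 CPM and 1742 CPM. The part of depth in the ratios was not tested. In each of the 3 classes the median globin count per cell was higher in CGG-Cit (ratios 1.30, 1.34 and 1.39), and the shallowest of 4 CGG depth bins had a level of 45595 CPM in mesenchymal cells, 57511 CPM in myeloid progenitors and 11253 CPM in monocytes and macrophages.

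Globin was also high in barcodes outside the classes compared. Of cells with no class, 37 in CGG-Cit and 63 in CGG had 500 or more globin UMIs, and of those with markers of several classes, 21 in CGG-Cit and 85 in CGG did. Those with no class had a median of 12814 globin UMIs in CGG-Cit and 6967 in CGG, with a median of 2 erythroid markers detected in both, and an Hba-a1 share of alpha UMIs of 54.9% in both.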

How the results depend on the processing

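No paired analysis was possible because each hydrogel has 1 library. The main CGG-Cit over CGG ratios of summed globin were 1.004 in erythroid cells, 2.49 in B lineage cells and 1.56 in neutrophils, and erythroid over B lineage was 56.0 in CGG-Cit and 139 in CGG. In that order they were 1.025, 2.65, 1.54, 52.0 and 135 with doublets kept. With at least 500 genes they were 0.976, 2.70, 1.55, 47.4 and 131. With at least 5 markers they were 1.006, 1.63, 1.58, 49.8 and 80.8. With classes from clusters they were 0.848, 1.95, 2.35, 42.9 and 98.7. Without the 1% of cells with most globin they were 1.004, 1.048, 1.43, 202 and 211. Without non-erythroid cells of 500 or more globin UMIs, added after seeing the data, they were 1.004, 0.990, 1.375, 200.9 and 198. With globin left out of the denominator the erythroid ratio was 1.014 and erythroid over B lineage was 197 in CGG-Cit and 487 in CGG. Median-of-ratios scaling gave 1.017 in erythroid and 2.54 in B lineage cells. At most 10% mitochondrial UMIs left all 5 within their intervals. The erythroid ratio of Hba-a2 turned to 1.016 with doublets kept, 1.007 without globin in the denominator and 1.01 with median-of-ratios scaling. Those of Hbb-bs and Hbb-bt turned to 0.993 and 0.989 with at least 500 genes, and 0.857 and 0.864 with clusters. In B lineage cells Hba-a1 and Hbb-bt turned to 0.913 and 0.999 without the top 1%, and Hba-a1, Hba-a2 and Hbb-bt to 0.837, 0.976 and 0.965 without the cells of 500 or more. The cause was not tested. A cluster of the erythroid kind took in 60 CGG-Cit cells outside the erythroid gate with 0.724% globin. Of the 208 values for single genes, shares and stages, 104 stayed within their intervals and 92 moved with their direction kept. With 1 library per hydrogel, counting intervals are narrow and leave out differences between animals and library preparations. Few CGG-Cit stromal cells (57 mesenchymal, 47 endothelial) limit the values there.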

Other observations

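Clusters made without the globin genes placed erythroid cells in 3 groups of rising globin content. In the cluster led by Car1, Hemgn and Klf1, globin took 44.5% of the UMIs of 330 CGG-Cit erythroid cells and 46.9% of those of 186 CGG erythroid cells. In the cluster led by Tmcc2, Slfn14 and Xpo7 it took 84.1% of 370 CGG-Cit cells' UMIs and 81.6% of 189 CGG cells' UMIs. In the last cluster, with Bpgm and Alas2 among its top genes, it took 94.7% of the UMIs of 290 CGG-Cit cells and 94.1% of those of 168 CGG cells. The Hba-a1 share of alpha UMIs was 58.7% in the first, 52.2% in the second and 53.1% in the last in CGG-Cit, and 59.8%, 52.7% and 53.2% in CGG.

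The first of these clusters also took in deep cells that did not pass the erythroid gate, 60 in CGG-Cit and 7 in CGG. The CGG-Cit ones had a median of 49306 UMIs and 84 globin UMIs, and globin took 0.724% of their UMIs. Of the CGG-Cit cells, 54 had under 500 globin UMIs.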
